A study of Mus musculus with 18 samples.

Results

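The genes described here encode the giant and structural proteins that hold the sarcomere together: Ttn, Neb, Mybpc1, Mybpc2, Myom1, Myom2, Myom3, Actn2 and Actn3. They were picked by name for their place in the sarcomere and not by a rule on their values, though earlier results of these data were known. They were found by pairing each Ensembl identifier of the count table with its mouse symbol. All 9 were found among 43430 identifiers, and all 9 had enough reads to be among the 13596 genes tested.

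RNA came from myofibers of the right quadriceps of mice of both sexes (C57BL/6 in the labels, C57BL/6J in the study's methods), 10 weeks old when treatment began and treated for 4 weeks. Every mouse was injected each day: vehicle mice with DMSO in PBS, daily mice with prednisone, a synthetic glucocorticoid, at 1 mg/kg, and weekly mice with 1 mg/kg prednisone on 1 day of the week and vehicle on the others, the last dose falling 2 days before the muscle was taken. Each combination of sex and regimen had 3 libraries, 18 in all, and each library came from 1 mouse. The labels name no allele or transgene, and myofibers were what a strainer held back after collagenase digestion, so cells attached to the fibers were included.

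The sarcomere is the repeating unit of striated muscle. Thin actin filaments are anchored at the Z-disc by alpha-actinin, thick myosin filaments are crosslinked at the M-band by myomesins, and titin spans from Z-disc to M-band and acts as a molecular spring. Nebulin runs along the thin filament, and myosin-binding protein C decorates the thick filament and tunes crossbridge cycling. Several of these proteins come in forms that favour fast or slow fibers, and glucocorticoids given every day are known to cause atrophy of fast fibers.

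Total counts ran from 10506661 to 14686654 per library. The 8 myofiber marker genes together held 119899 to 217828 CPM (a gene's counts relative to the library size, scaled by TMM factors), so the label of the tissue held in every library. Markers of other cells were also present, and no gene of those lists was at 0 in all libraries. The 10 adipocyte genes summed to 741 to 1771 CPM in vehicle libraries, 1214 to 9417 in weekly libraries and 1498 to 7142 in daily libraries. The 10 slow-fiber genes summed to 2325 CPM in female weekly replicate 1, against 112 to 581 CPM in the other libraries. Results for members that rest on that library are given below with and without it. Mitochondrially encoded genes took 11.7% to 36.4% of counts.

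In these quadriceps myofibers the forms typical of fast fibers prevailed. On the scale of CPM per kb of the longest annotated transcript, which allows levels to be compared between genes, Actn3, the alpha-actinin of fast fibers, had the highest median over 18 libraries at 2813 and a range of 2268 to 4413. Mybpc2, the fast myosin-binding protein C, followed at 1447 with a range of 1086 to 2228. These ranges did not overlap, and Actn3 was above Mybpc2 in 18 of 18 libraries.

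Myom2 and Myom1 came next on the same scale. Myom2, the myomesin of fast fibers, had a median of 282 CPM per kb, and Myom1, which crosslinks thick filaments in all fibers, had 203. Their ranges overlapped, at 178 to 394 and 142 to 292, although Myom2 was above Myom1 within each of the 18 libraries. Mybpc1, the slow myosin-binding protein C, had a median of 177 CPM per kb and a range of 55.2 to 360.5, and it could not be placed relative to Myom1, which was the higher of the pair in 10 of 18 libraries by longest transcript and in 3 of 18 by the union of all exons.

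Neb, with a median of 116 CPM per kb, was above Actn2, the alpha-actinin found in all fibers, at 77.4, in 14 of 18 libraries. Ttn had a median of 63.0 CPM per kb, below Actn2 in 16 of 18 libraries by longest transcript and in 13 of 18 by the union of all exons. Its longest transcript measures 106824 bases, and by CPM alone Ttn was the second most abundant of the 9 at a median of 6727 CPM, against 8122 CPM for Actn3. Myom3, the myomesin of intermediate and slow fibers, had a median of 1.22 CPM per kb and a highest value of 9.50, below every other member in every library. All 9 genes together took 1.73% to 4.09% of a library's counts.

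**Figure D1:**
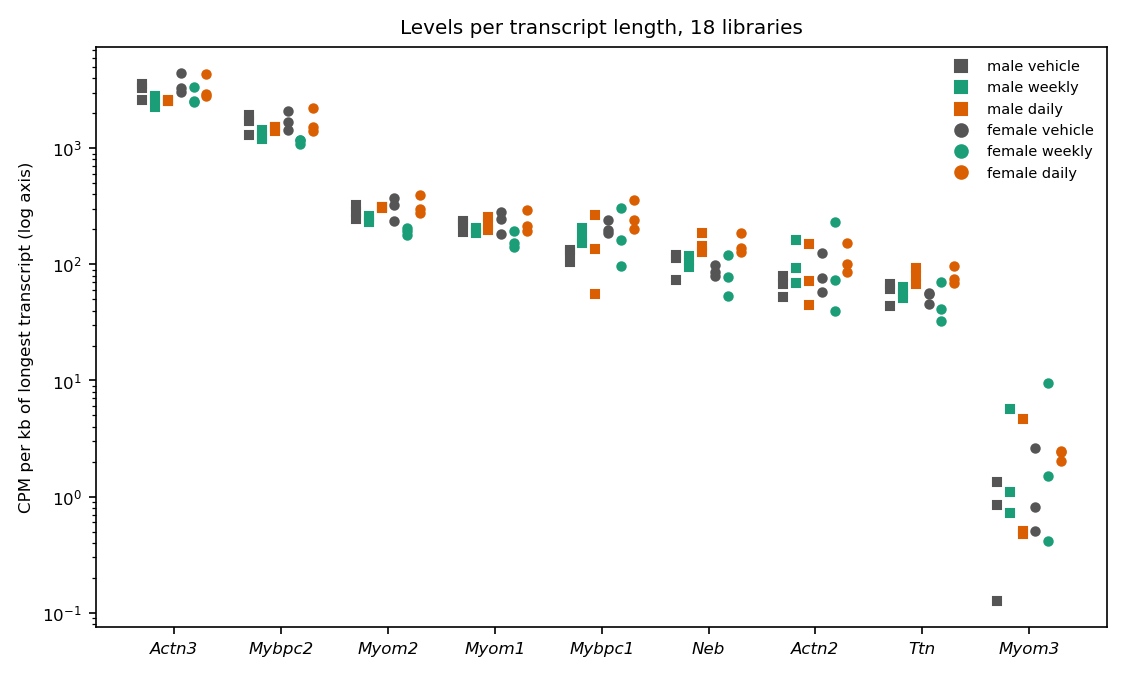
Level of each gene in CPM per kb of its longest transcript, on a log axis, with 1 point per library coloured by regimen, squares for males and circles for females. The order runs from Actn3 at a median of 2813 to Myom3 at 1.22, and only Actn3, Mybpc2 and Myom3 keep ranges clear of their neighbours.

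The members also differed in how far they varied. The highest library exceeded the lowest by 1.95-fold for Actn3 and by 2.05-fold to 2.21-fold for Mybpc2, Myom1 and Myom2. The spread was 2.98-fold for Ttn and 3.49-fold for Neb. Mybpc1 at 6.53-fold, Actn2 at 5.86-fold and Myom3 at 75.4-fold varied most, and for Myom3 counts as low as 8 reads add counting error to that figure. The same libraries set many of these extremes. Female weekly replicate 2 was lowest for Ttn, Neb, Mybpc2, Myom1, Myom2 and Actn2. Female daily replicate 1 was highest for Ttn, Neb, Mybpc1, Mybpc2, Myom1 and Myom2. They also had the highest and lowest mitochondrial shares, at 36.4% and 11.7% of counts, whose part in the spread was not tested.

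Titin is encoded by Ttn (ENSMUSG00000051747, chr2:76703980-76982547, minus strand, mm10), which has 345 exon blocks in the GENCODE M21 annotation. In males Ttn stood at 7190.1, 6595 and 4722 CPM in the 3 vehicle libraries and at 7244, 8432 and 9923 CPM in the 3 daily libraries. In females it stood at 5981, 6083 and 4879.7 CPM under vehicle and at 10329, 7319 and 8044 CPM under daily prednisone. All daily libraries were above all vehicle libraries in each sex, although the gap in males was narrow.

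Nebulin is encoded by Neb (ENSMUSG00000026950, chr2:52136647-52338798, minus strand, mm10). In males Neb was at 2691, 2566 and 1641 CPM under vehicle and at 2891, 3233 and 4156 CPM under daily prednisone. In females the vehicle libraries were at 2209, 1927 and 1771 CPM and the daily libraries at 4211, 2854 and 3128 CPM. As for Ttn, the daily and vehicle libraries did not overlap in either sex.

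Daily prednisone was compared with vehicle to ask how these messages differed after a dose on every day. Averaged over both sexes, Neb rose by 0.68 ± 0.19 on the log2 scale (SE, 1.60-fold, adjusted p = 0.0221, edgeR quasi-likelihood test with Benjamini-Hochberg adjustment over all genes tested). The call was kept in 12 of 12 fits that each left out 1 daily or vehicle library (edgeR adjusted p from 0.0248 to 0.0484). Neb was the 1 member of 9 called, where 7.48% of all genes tested rose and 7.47% fell. Ttn differed by 0.53 ± 0.18 (1.45-fold, edgeR adjusted p = 0.0546) and missed the threshold of 0.05. Ttn and Neb were the 2 members with every daily library above every vehicle library within both sexes, a pattern shown by 5.44% of all genes tested. In bulk RNA, fewer fibers of a type and less RNA per fiber cannot be told apart, and this holds for every difference below.

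Within each sex alone no member passed. In males 0 of 9 members were called by edgeR (6.46% of all genes were), and Neb, at 0.58 ± 0.26, was the 1 member whose p was under 0.05 before adjustment, against 10.6% of all genes with such a p and a higher estimate (3101 genes in either direction). In males 2 of 9 members lay wholly above vehicle, against 16.4% of all genes. In females 0 of 9 were called by edgeR (0.382% of all genes were), and 2 had a p under 0.05 before adjustment, Neb at 0.79 ± 0.27 and Ttn at 0.60 ± 0.25, against 9.65% of all genes with such a p and a higher estimate (2354 genes in either direction). Again 2 of 9 members lay wholly above vehicle, against 12.9% of all genes. DESeq2 and limma-voom also called 0 members in each sex alone. The responses of the sexes were then compared directly, and 0 of 9 members differed (edgeR, 0% of all genes called). For Neb the female minus male difference was 0.21 with a 95% interval of -0.52 to 0.94, so a difference of moderate size in either direction was not detectable.

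The remaining members did not follow under daily prednisone. Mybpc2 differed from vehicle by -0.09 ± 0.14, Myom1 by 0.00 ± 0.14, Myom2 by 0.09 ± 0.13 and Actn3 by -0.20 ± 0.15 (log2, mean of both sexes, SE), and their edgeR adjusted p ran from 0.41 for Actn3 to 0.99 for Myom1. Mybpc1 at 0.34 ± 0.31, Actn2 at 0.40 ± 0.40 and Myom3 at 1.03 ± 0.84 had higher estimates with wide errors and were not called. The median over all 9 members was 0.34, against 0.02 over all genes tested.

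Other measures moved with Ttn and Neb. Transcripts longer than 10 kb other than the 9 members took 1.40% to 1.76% of counts in vehicle libraries, 1.48% to 1.86% in weekly libraries and 2.18% to 2.52% in daily libraries, with no overlap between daily and the rest. When a smooth trend of counts with gene length and GC content was removed from each library, the difference of Neb fell to 0.40 ± 0.22 (edgeR adjusted p = 0.308) and that of Ttn to 0.29 ± 0.20 (edgeR adjusted p = 0.458), and 0 members were called. The same step took the genes called among all tested from 2033 to 741. Mitochondrial genes took 11.7% to 24.5% of counts in daily libraries and 16.95% to 32.6% in vehicle libraries. With those genes left out, Neb was at 0.68 ± 0.19 (edgeR adjusted p = 0.0258). Of the 10 adipocyte genes 7 rose under daily prednisone and 0 fell, and with their score as a covariate Neb was at 0.55 ± 0.29 (edgeR adjusted p = 0.384), in a fit that called 0 of all genes tested. With the slow-fiber score as a covariate Neb was at 0.60 ± 0.20 (edgeR adjusted p = 0.0579). Of the 5 blood genes 4 fell under daily prednisone, with a median of -0.63, and together they took 68.0 to 122 CPM in daily and 96.5 to 175 CPM in vehicle libraries. The part of these measures in the result was not tested.

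**Figure D2:**
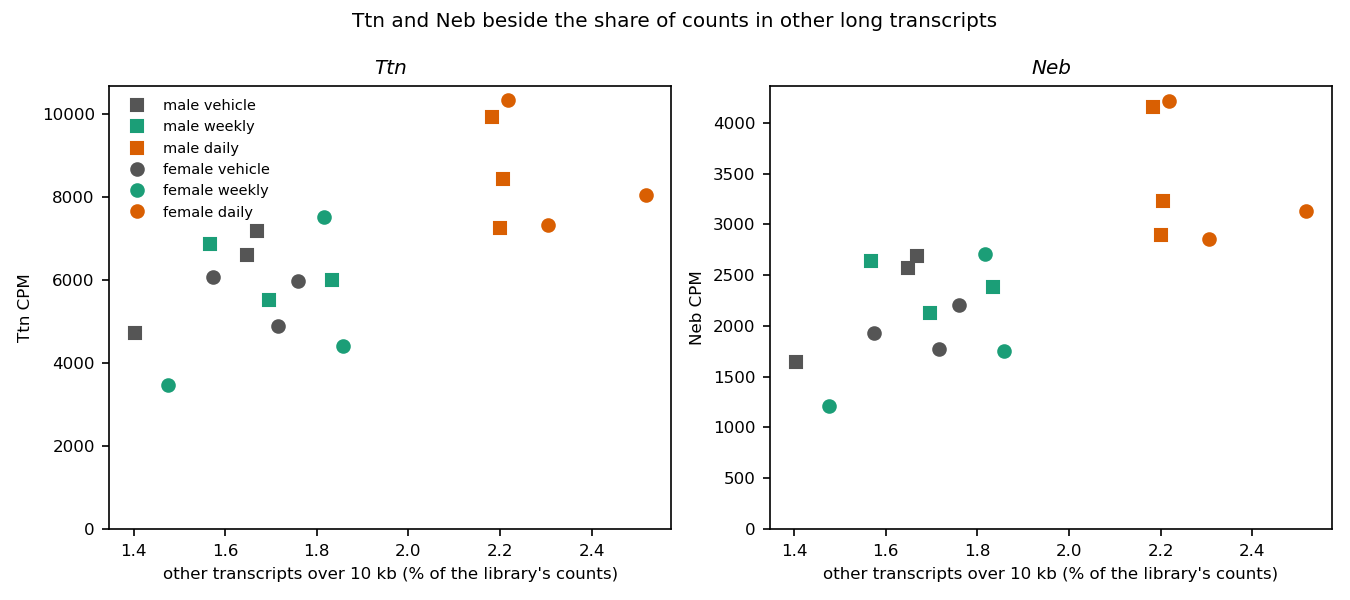
CPM of Ttn (left) and Neb (right) against the percentage of a library's counts that fell in other transcripts longer than 10 kb, with 1 point per library. The 6 daily libraries lie at 2.18% or above on the horizontal axis, to the right of the 12 others, and hold the highest Neb values.

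Ttn and Neb also moved together within groups. Over the 18 libraries Pearson's r of their log2 CPM was 0.98, and it was 0.97 after the group means were removed, a description over points that share library depth and preparation. The ratio of Ttn to Neb within a library differed little, with a log2 mean of 1.44 ± 0.08 in male vehicle, 1.32 ± 0.06 in male daily, 1.52 ± 0.12 in female vehicle and 1.34 ± 0.04 in female daily libraries (SD, n = 3). The daily minus vehicle difference of this ratio was -0.15 (two-sided exact permutation of regimens within each sex, p = 0.01, adjusted p = 0.08 over 8 ratio tests, where 0.005 is the smallest p possible). It did not pass after adjustment.

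The promoter sequences of 6 of the 9 members matched the RefSeq promoter table (GRCm38.p6). Neb, Myom2 and Actn3 were not in it. In the 250 bases before each RefSeq start, 4 motifs were sought on both strands: the E-box CANNTG, to which myogenic factors bind, the spaced pair ACANNNTGT of the glucocorticoid receptor, the TATA box TATAAA, and the MEF2 motif by name. The sequences of Ttn, whose level followed Neb, and of Myom3 and Actn2, whose levels followed each other, are given 5′ to 3′ with E-boxes in capitals.
Ttn: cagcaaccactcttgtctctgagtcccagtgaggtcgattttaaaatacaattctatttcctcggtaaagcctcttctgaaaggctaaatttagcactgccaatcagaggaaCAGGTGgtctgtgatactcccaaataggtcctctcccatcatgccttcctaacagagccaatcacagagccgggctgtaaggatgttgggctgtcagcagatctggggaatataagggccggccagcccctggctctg
Myom3: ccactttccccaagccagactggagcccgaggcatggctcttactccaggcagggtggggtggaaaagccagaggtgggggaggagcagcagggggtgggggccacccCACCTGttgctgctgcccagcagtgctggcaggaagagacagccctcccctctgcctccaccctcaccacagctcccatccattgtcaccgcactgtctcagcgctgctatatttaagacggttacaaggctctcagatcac
Actn2: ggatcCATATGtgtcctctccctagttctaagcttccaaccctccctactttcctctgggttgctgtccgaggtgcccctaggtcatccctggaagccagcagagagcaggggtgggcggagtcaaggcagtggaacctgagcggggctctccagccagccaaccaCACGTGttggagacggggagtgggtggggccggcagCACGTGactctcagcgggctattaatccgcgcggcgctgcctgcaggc
They lie at chr2:76982548-76982797 on the minus strand, chr4:135759465-135759714 on the plus strand and chr13:12340733-12340982 on the minus strand.

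The Ttn window held 1 E-box, the Myom3 window 1 and the Actn2 window 3. All 6 matched members had at least 1 E-box, as did 66.2% of 32851 promoters of the same length. None of the 6 held ACANNNTGT, which 5.84% of all promoters held, or TATAAA, which 12.4% held. A MEF2 motif was found in 2 of the 6, beginning 166 bases before the start of Ttn and 35 before that of Myom3, and in 2.92% of all promoters. A match or its absence in this window is a description of the letters and not of binding.

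**Figure D3:**
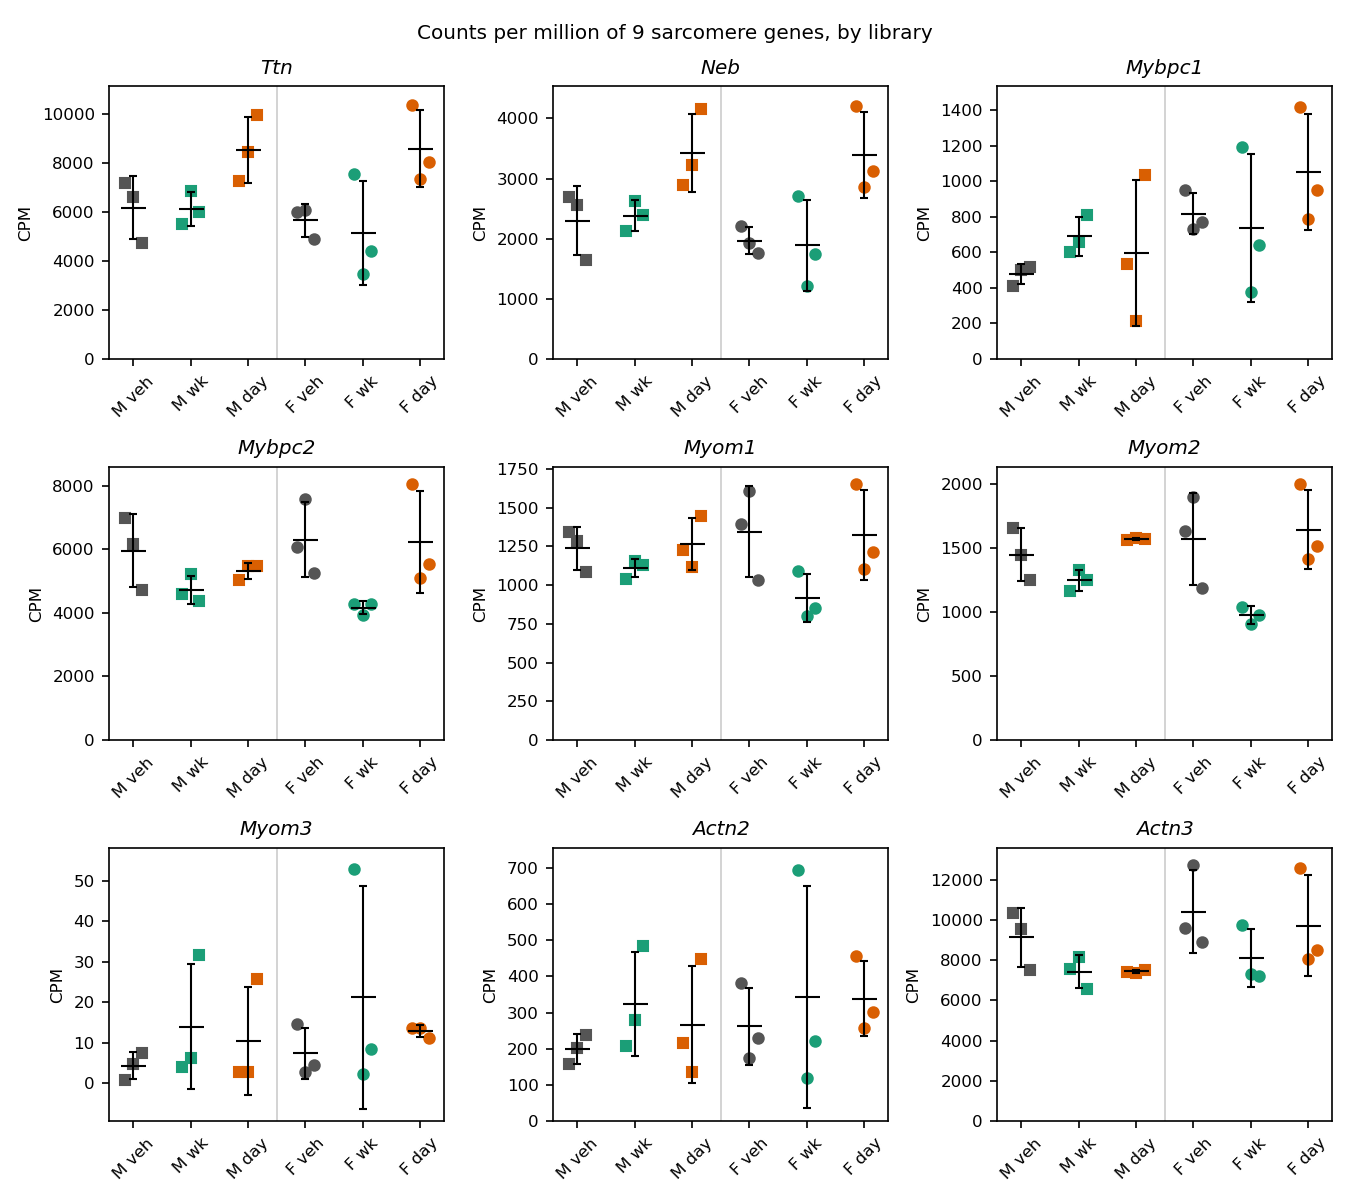
CPM of each gene in every library by sex and regimen (veh, vehicle; wk, weekly; day, daily), with points for libraries, a bar at the group mean and error bars of 1 SD (n = 3). Ttn and Neb are higher in all daily than in all vehicle libraries of each sex, while Myom3 and Actn2 have 1 high library in the female weekly group.

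Weekly prednisone was compared with vehicle to ask whether intermittent exposure acted on the same messages. In this comparison, which shares its vehicle libraries with the daily one, Ttn was at 5510.2, 6858 and 5992 CPM in weekly males and at 7518, 3469 and 4411 CPM in weekly females. Neb was at 2129, 2635 and 2387 CPM in weekly males and at 2710.4, 1208 and 1754 CPM in weekly females. Both genes overlapped vehicle in each sex, and their differences averaged over both sexes were -0.07 ± 0.18 for Ttn and 0.00 ± 0.19 for Neb (log2, SE). In females alone the differences were -0.14 ± 0.25 for Ttn and -0.06 ± 0.26 for Neb. Without female weekly replicate 1 these female differences were -0.52 and -0.41, and neither gene was called in that fit.

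The members with the lowest estimates under weekly prednisone were Mybpc2, Myom2 and Myom1, and each estimate was lower in females than in males. Myom2 (ENSMUSG00000031461, chr8:15057653-15133541, plus strand, mm10) was at 1632, 1897 and 1189 CPM in vehicle females and at 1042, 905 and 981 CPM in weekly females. Mybpc2 (ENSMUSG00000038670, chr7:44501699-44524669, minus strand, mm10) was at 6078, 7566 and 5235 CPM in vehicle females and at 4292, 3923 and 4283 CPM in weekly females. In both genes every weekly female was below every vehicle female. These were 2 of 9 members, against 3.13% of all genes that lay wholly below.

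The test did not call them. In females Myom2 differed by -0.69 ± 0.18 and Mybpc2 by -0.60 ± 0.20 (log2, SE), with edgeR adjusted p = 0.247 and 0.371. In weekly females 0 of 9 members were called by edgeR (0% of all genes were), while 3 had a p under 0.05 before adjustment, the third being Myom1 at -0.55 ± 0.20. All 3 estimates were lower, as 2.29% of all genes were with such a p (1083 genes in either direction). DESeq2 called 1, Myom2 (-0.69, DESeq2 adjusted p = 0.0139), and 1.12% of all genes, and limma-voom called 0. Related genes leaned the same way in weekly females. Of 50 other sarcomere genes tested, described below, 38 estimates were lower (median -0.21, 0 called by edgeR). So were 9 of 10 fast-fiber and 7 of 8 myofiber estimates, again with 0 called. Other lists moved with these females: the 10 macrophage genes summed to 95.6 to 130 CPM against 36.3 to 72.1 in vehicle females, the 10 adipocyte genes to 1949 to 9417 against 1678 to 1771, and the 10 fast-fiber genes to 100701 to 126495 against 124832 to 187064. All 10 macrophage and all 10 adipocyte estimates were higher, with 0 called. The part of these cells in the result was not tested.

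In weekly males Myom2 was at 1165, 1332 and 1249.6 CPM against 1658, 1443 and 1248 CPM under vehicle, and Mybpc2 was at 4589, 5218 and 4372 CPM against 6972, 6171 and 4707 CPM. The groups overlapped, with differences of -0.22 ± 0.18 and -0.33 ± 0.20. The only member wholly apart in males was Mybpc1 (ENSMUSG00000020061, chr10:88518279-88605152, minus strand, mm10), at 411, 498 and 519 CPM under vehicle and 599, 659.7 and 808 CPM under weekly prednisone, where 7.76% of all genes lay wholly above. Its difference was 0.53 ± 0.44 (edgeR adjusted p = 0.865). Females did not show the same: Mybpc1 was at 951, 731 and 771 CPM under vehicle and at 1193, 379 and 641 CPM under weekly prednisone. The female groups overlapped, with a difference of -0.15 ± 0.44. In weekly males 0 of 9 members were called by edgeR (0% of all genes were), with 0 at a p under 0.05 before adjustment (5.71% of all genes) and 0 by DESeq2 or limma-voom.

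Averaged over both sexes, 0 of 9 members were called for weekly prednisone (edgeR, 0% of all genes). Before adjustment 4 had a p under 0.05: Mybpc2 at -0.46 ± 0.14, Myom2 at -0.45 ± 0.13, Myom1 at -0.35 ± 0.14 and Actn3 at -0.33 ± 0.15. All 4 estimates were lower, as 4.57% of all genes were with such a p (1492 genes in either direction). DESeq2 called 2 of these, Mybpc2 and Myom2 (DESeq2 adjusted p = 0.0444 and 0.0218), and 1.35% of all genes, and limma-voom called 0. The median over the 9 members was -0.07, against 0.02 over all genes tested. The female minus male difference of the weekly response was tested and 0 of 9 members differed (edgeR, 0% of all genes), with Myom2 at -0.47 and a 95% interval of -0.97 to 0.02.

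Daily and weekly regimens were then compared directly. The regimens also differed in total dose. Weekly mice had their last dose 2 days before the muscle was taken, while that interval is not given for daily mice. How often, how much and how recently prednisone was given cannot be told apart here. Against weekly mice, daily mice had higher Myom2 by 0.54 ± 0.13 (edgeR adjusted p = 0.0185), Neb by 0.68 ± 0.19 (adjusted p = 0.0345) and Ttn by 0.61 ± 0.18 (adjusted p = 0.0460), all averaged over both sexes. These 3 of 9 members rose and 0 fell, where 4.30% of all genes rose and 3.88% fell. Neb and Myom2 were the 2 members with every daily library above every weekly library within both sexes, against 3.99% of all genes. For Myom2 the daily libraries were at 1564, 1583 and 1574 CPM in males and 1997, 1418 and 1516 CPM in females. Against vehicle, Myom2 was at 0.09 ± 0.13 under daily and -0.45 ± 0.13 under weekly prednisone, while Neb was at 0.68 ± 0.19 and 0.00 ± 0.19.

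Markers of other cells differed between the same groups. Of the 5 blood genes 4 were called lower in daily mice (median -0.81), at a sum of 68.0 to 122 CPM against 127 to 201 CPM in weekly libraries with no overlap. All 10 slow-fiber estimates were lower (median -2.78, 0 called), a median that includes female weekly replicate 1 and was not taken without it. The slow-fiber genes summed to 118 to 241 CPM in daily libraries and 169 to 581 CPM in male weekly libraries. In female weekly replicates 1, 2 and 3 they summed to 2325, 239 and 198 CPM. Of the 10 macrophage genes 8 estimates were lower, with 1 called in each direction. The part of these cells in the result was not tested.

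The Myom2 call was kept in 12 of 12 fits that each left out 1 daily or weekly library. The Neb call was kept in 5 of 12 such fits. The Ttn call was kept in 1 of 12, the fit without female weekly replicate 1 (0.80 ± 0.15, edgeR adjusted p = 0.00835). Myom2 alone was called without male weekly replicate 1 or 3, male daily replicate 2 or 3, female weekly replicate 3, or female daily replicate 1 or 3. With the slow-fiber score as a covariate Myom2 was at 0.49 ± 0.14 and was no longer called (edgeR adjusted p = 0.0552). Ttn was no longer called with the size factors of DESeq2, with the adipocyte score as a covariate or with mitochondrial genes left out (edgeR adjusted p = 0.0501, 0.0514 and 0.0505). When the length and GC trend was removed, 0 members and 58 of all genes tested, in place of 1111, were called, with Myom2 at 0.47 ± 0.16 (edgeR adjusted p = 0.182), Neb at 0.48 ± 0.22 (adjusted p = 0.310) and Ttn at 0.43 ± 0.20 (adjusted p = 0.325).

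**Figure D4:**
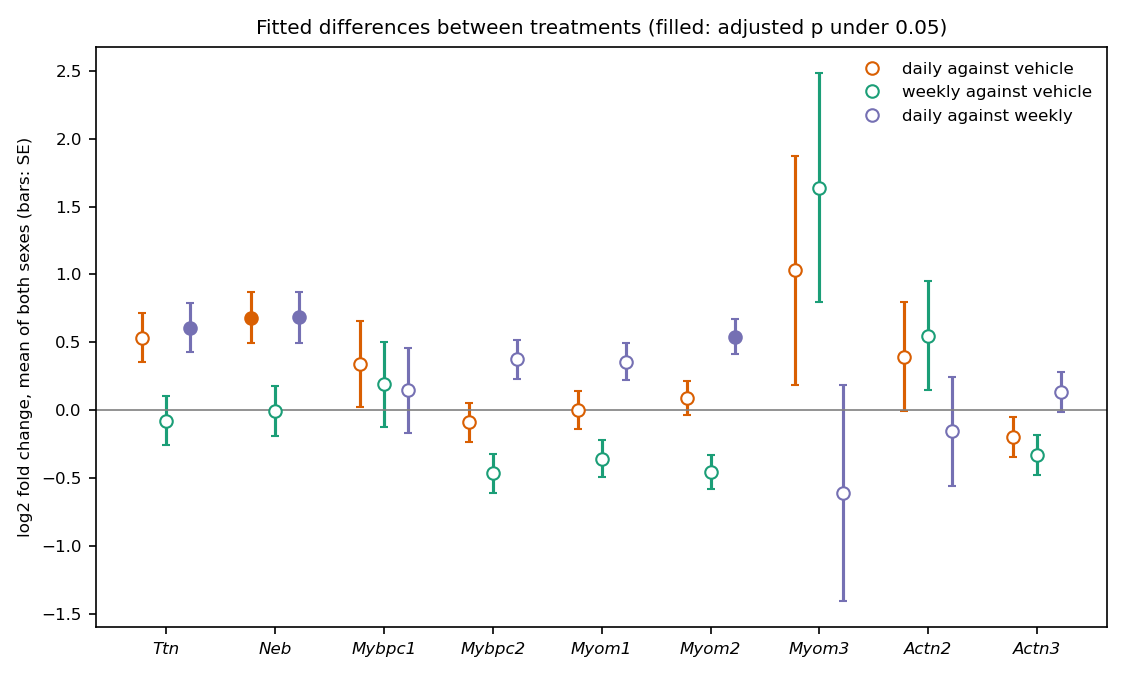
Fitted log2 fold change of each gene with its SE for 3 comparisons averaged over both sexes; filled points have an adjusted p under 0.05. Neb is filled for daily against vehicle, and Ttn, Neb and Myom2 are filled for daily against weekly.

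Myom1 (ENSMUSG00000024049, chr17:71019521-71126856, plus strand, mm10) tracked its paralog Myom2. It was at 1345, 1287 and 1083 CPM in vehicle males, 1043, 1159 and 1131 in weekly males and 1226, 1120.4 and 1447 in daily males. In females it was at 1395, 1610.2 and 1032 CPM under vehicle, 1092, 804 and 855 under weekly and 1651, 1104 and 1216 under daily prednisone. The groups overlapped in both sexes except that daily females lay above weekly females, and Pearson's r with Myom2 was 0.93 over 18 libraries.

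The alpha-actinins of the Z-disc did not pass any test. Actn3 (ENSMUSG00000006457, chr19:4861223-4877909, minus strand, mm10) was at 10346, 9532 and 7495 CPM in vehicle males, 7558, 8176 and 6548 in weekly males and 7426, 7382 and 7498 in daily males. In females it was at 9573, 12740.4 and 8891 CPM under vehicle, 9749, 7318 and 7207 under weekly and 12601, 8067 and 8482 under daily prednisone. Vehicle and treated libraries overlapped in both sexes. Of the 10 fast-fiber genes 7 fell under daily prednisone (median -0.52 over the list), and Actn3, at -0.20 ± 0.15, was not called.

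Actn2 (ENSMUSG00000052374, chr13:12269426-12340760, minus strand, mm10) was at 157, 203 and 237 CPM in vehicle males, 209, 279 and 485 in weekly males and 216, 135 and 448 in daily males. In females it was at 381, 175 and 229 CPM under vehicle, 694, 118 and 220.3 under weekly and 457, 258 and 300.5 under daily prednisone. Single libraries set the spread of each treated group.

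Myom3 (ENSMUSG00000037139, chr4:135759715-135815564, plus strand, mm10) followed the same libraries at a far lower level. It was at 0.702, 4.71 and 7.39 CPM in vehicle males, 4.05, 6.15 and 31.7 in weekly males and 2.64, 2.83 and 25.9 in daily males. In females it was at 14.6, 2.83 and 4.57 CPM under vehicle, 52.9, 2.3 and 8.4 under weekly and 13.6, 13.7 and 11.2 under daily prednisone. Both genes had their highest library at the same replicate in 5 of the 6 groups, among them male weekly replicate 3, male daily replicate 3 and female weekly replicate 1, and Pearson's r between them was 0.91 over 18 libraries. Female weekly replicate 1 was also the library in which slow-fiber genes summed to 2325 CPM. All 10 slow-fiber genes had higher estimates in weekly than in vehicle females, with a median of 4.47 and 0 called. In weekly females the differences of Myom3 and Actn2 were 1.53 ± 1.16 and 0.40 ± 0.57, and without that library they were -0.45 and -0.63, so their direction rests on it. The part of slow fibers in these values was not tested.

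**Figure D5:**
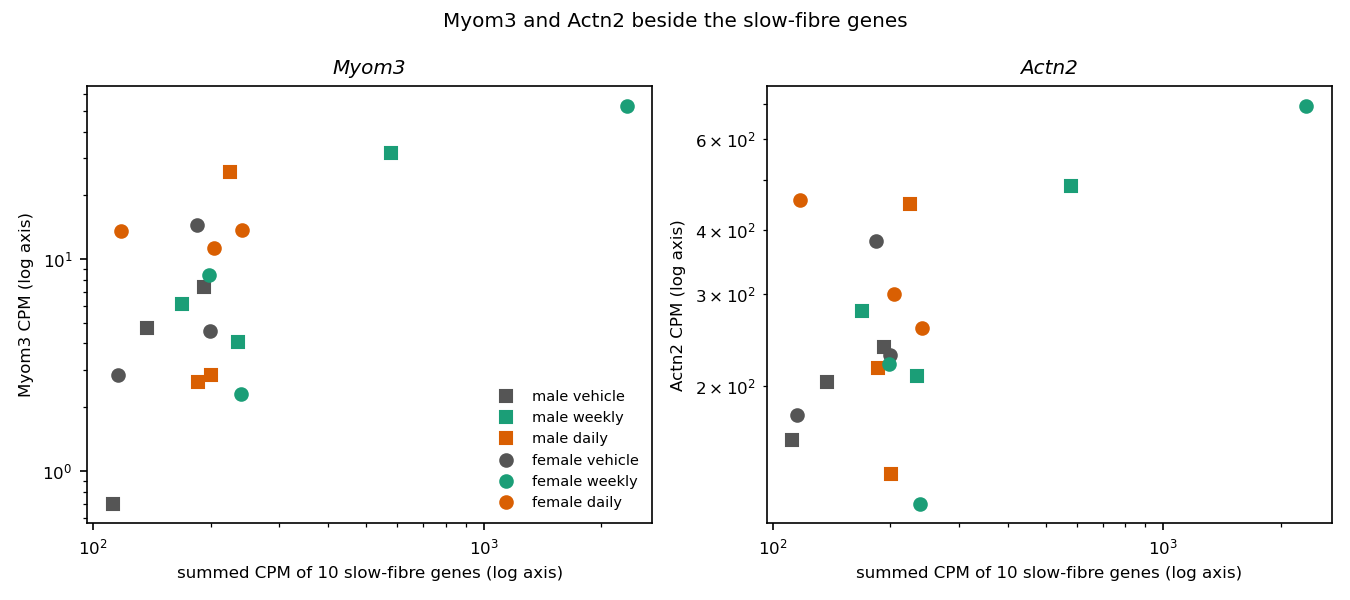
CPM of Myom3 (left) and Actn2 (right) against the summed CPM of 10 slow-fiber genes, both axes on a log scale, with 1 point per library. Female weekly replicate 1, at 2325 CPM of slow-fiber genes, has the highest value of both genes.

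Paired forms were also compared within libraries, where scaling cancels. The ratio of a slow-fiber or general form to the fast-fiber form was taken as log2, treated minus vehicle, with an exact two-sided permutation test within sex. For Mybpc1 over Mybpc2 the difference was 0.57 under weekly (exact permutation p = 0.075, adjusted p = 0.247) and 0.28 under daily prednisone (exact permutation p = 0.47). For Actn2 over Actn3 it was 0.68 (exact permutation p = 0.165) and 0.53 (exact permutation p = 0.175), and for Myom3 over Myom2 it was 1.63 (exact permutation p = 0.135) and 0.93 (exact permutation p = 0.265). None of the 8 ratio tests passed, with adjusted p from 0.08 to 0.47. Without female weekly replicate 1 the weekly differences were 0.36 for Mybpc1 over Mybpc2, 0.40 for Actn2 over Actn3 and 1.07 for Myom3 over Myom2. In females alone, without that library, they were -0.12, -0.12 and 0.34. In males alone they were 0.85, 0.92 and 1.79. Single libraries weigh on the male Myom3 over Myom2 value too. Its log2 ratio was -10.91, -8.21 and -7.37 in male vehicle libraries, the first with 8 Myom3 reads. In male weekly libraries it was -8.11, -7.72 and -5.29.

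Female and male vehicle mice were compared to see whether the sexes differed without prednisone, after 4 weeks of vehicle injections. In this comparison 0 of 9 members were called by edgeR (0.765% of all genes were). No member had a p under 0.05 before adjustment, against 10.4% of all genes, and DESeq2 and limma-voom called 0. Mybpc1 was wholly higher in females, at 951, 731 and 771 CPM against 411, 498 and 519 CPM in males, as 9.66% of all genes were. Its difference was 0.78 ± 0.45 (edgeR adjusted p = 0.566).

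Of 52 other sarcomere genes listed, 50 were tested. Under daily prednisone, averaged over both sexes, 2 rose and 4 fell, with a median of 0.10 over the list against 0.02 over all genes. Those that rose were Palld, an actin-crosslinking Z-disc protein, at 0.78 ± 0.15 and Myoz3, a calcineurin-binding Z-disc protein, at 0.70 ± 0.15. Those that fell were Actc1, cardiac actin, at -1.17 ± 0.31, Smpx, a small stretch-responsive muscle protein, at -0.59 ± 0.13, Pdlim7, a PDZ-LIM protein of the Z-disc, at -0.48 ± 0.14 and Myoz1, a fast-fiber relative of Myoz3, at -0.46 ± 0.15. Acta1, the main actin of the thin filament along which nebulin runs, was at -0.29 ± 0.17 and was not called (edgeR adjusted p = 0.266). Nebl, which encodes a shorter relative of nebulin, was at 0.56 ± 0.34 and was not called.

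Within males, Palld rose by 1.08 ± 0.21 and Tcap, which caps titin at the Z-disc, fell by 0.60 on the log2 scale (edgeR adjusted p = 0.0109 and 0.0376). In females Tcap was at 0.13 ± 0.16 and was not called, and the female minus male difference of its response was 0.73 ± 0.23 (edgeR adjusted p = 0.889). Under weekly prednisone 0 of the 50 were called by edgeR, and their median was -0.19. Between daily and weekly mice 5 rose and 0 fell, among them Myoz3, Mypn, Palld and Obsl1, at 0.67, 0.51, 0.51 and 0.33. Mypn encodes myopalladin, which tethers nebulin at the Z-disc, and Obsl1 encodes a cytoskeletal adaptor protein.

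The genes whose log2 CPM most resembled each member over the 18 libraries were found by Pearson's r among all tested genes outside the 9. For Ttn they were Speg, a muscle kinase of the triad, at 0.96 and Tti1 at 0.95, and for Neb they were Ubr3, a ubiquitin ligase, at 0.97 and Tti1 at 0.96. For Myom3 they were Myh2, the myosin heavy chain of type IIa fibers, at 0.98 and Fhl1 at 0.96, and for Actn2 Smtnl1 at 0.94 and Myh1, the myosin of type IIx fibers, at 0.94. Myom2 went most closely with Myh4, the myosin of type IIb fibers, at 0.93 and Clip1 at 0.92.

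Mybpc2 was closest to Gaa, the lysosomal alpha-glucosidase, at 0.95 and Mylk2, the myosin light chain kinase of skeletal muscle, at 0.95. Myom1 was closest to Ecpas and Myo18b, both at 0.94, and Mybpc1 to Egln3, a prolyl hydroxylase, at 0.90. For Actn3 the closest were Anapc5, a subunit of the anaphase-promoting complex, at 0.97 and Ampd1, the AMP deaminase of muscle, at 0.94. These libraries share depth and preparation, and the values describe likeness over these 18 libraries.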

How the data were processed

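The deposited file is a table of read counts per gene in 18 mouse myofiber libraries, which the authors made by aligning polyA RNA reads to mm10 per the methods, while the submitters' processing notes list mm9 as well. The submitters' processing notes name TopHat2 2.1.0, Bowtie2 2.2.6 and HTSeq. The annotation release and strand setting are not given in the sources used here, so short antisense overlaps (Ttn with Gm13938 over 453 bases, Mybpc1 with Gm48752 over 252, Mybpc2 with Gm44646 over 192) cannot be separated. Symbols and lengths came from GENCODE M21 (42546 of 43430 identifiers matched). The length column of the table exceeded the genomic span for 1982 identifiers, Ttn among them, so the longest annotated transcript was used for levels per kb.

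Counts were fitted with edgeR 4.0.16 (R 4.3.3; TMM, minimum count of 10, 6 group means, robust quasi-likelihood test, Benjamini-Hochberg over 13596 genes, threshold 0.05). Each group was defined by the labels for sex and treatment. Ratios of members within a library were tested by exact permutation within sex. Fits with DESeq2 1.42.0, limma 3.58.1 (voom), other filters, covariates, a replicate block, a length and GC trend and each library left out were alternatives. The code was tested on simulated data. The 9 members and the gene lists were chosen with earlier results of these data known. Named genes were all 9 members, called genes of the other-sarcomere lists (up to 6 in each direction per comparison with vehicle), Acta1 and Nebl, and the 2 genes most correlated with each member. Genes called between daily and weekly mice were named because they were 5 or fewer, after their values were seen. Some genes that these rules name are not reported here. Replicates were separate mice per the methods.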

Additional observations from a re-analysis of the deposited data

How the results depend on the processing

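The count of members called for daily against vehicle, averaged over both sexes, was 1 (Neb) and became 2 (Ttn and Neb) with DESeq2, with no filter, with a filter at 5 CPM and with the compared groups alone. It became 0 with the length and GC trends removed, alone or with the replicate block (a pairing of 2 settings chosen after seeing the data), with the adipocyte score and with the slow-fiber score as a covariate (Neb 0.60, edgeR adjusted p = 0.0579). With 1 library left out it was 1 to 2, the 2 without female weekly replicate 1 or 2. For daily against weekly the 3 became 2 with DESeq2 size factors, the adipocyte score or mitochondrial genes left out (each without Ttn) and with the slow-fiber score (without Myom2), 1 with the compared groups alone and 0 with the length and GC trends removed, alone or with the replicate block. With 1 library left out it ranged from 1 to 3, and was 1 (Myom2) in 7 fits: without male weekly replicate 1 or 3, male daily replicate 2 or 3, female weekly replicate 3, or female daily replicate 1 or 3. For weekly against vehicle DESeq2 called 1 in females and 2 over both sexes in place of 0. The replicate block, by the replicate number of the sample titles, left the counts at 1 and 3 (Neb daily against vehicle 0.67, edgeR adjusted p = 0.0188). It changed no other call of a member. Libraries of 2 groups with the same title number correlated above 0.1 in 9 of 18 pairs (-0.318 to 0.501). These included all 3 pairs of female weekly and female daily libraries (0.439 to 0.501) but not all 3 of any other pair of groups. Pairing by title number was thus not shown for the comparisons with vehicle, and was not settled for daily against weekly mice. The column names of the count table often carry other numbers, and pairing by those was not checked. Because the block is nested in sex, it was not run for females against males. Leaving the 9 members out of the library sizes, an alternative also added after seeing the data, changed no call. No ratio test passed under any alternative, but some alternatives had little or no room to pass. In 1 sex alone, with 3 libraries against 3, too few relabellings exist for any ratio test to pass. The replicate block also allows few relabellings, which limited what could pass. The lack of a pass in these alternatives therefore does not show that the ratio results are stable. Depth limited Myom3 most, with 8 to 790 reads per library, while each other member had at least 1237.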
